A study of Drosophila melanogaster with 3 samples.

Results

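Grain peaks were examined at 10 genes of the Notch pathway: the receptor gene N, the ligand genes Delta (Dl) and Ser, the genes fng, kuz, neur and numb, whose products act on the receptor or its ligands, and the genes Su(H), mam and H, whose products act in the nucleus. A peak was given to a gene when its summit lay in the gene body or within 1000 bp upstream of the gene's 5′ end. By this rule the 10 genes held 26 of the 6580 peaks that passed the authors' test of reproducibility (the optimal list), and 8 of the 10 genes held at least 1. They also held 136 of the 30000 peaks called on the pooled replicates, of which 110 were below the optimal list.

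Notch signalling passes between touching cells: a ligand on one cell binds the receptor on the next, the receptor is cut, and its inner part moves to the nucleus to switch genes on together with a DNA-binding protein. In the fly embryo the pathway is best known for lateral inhibition, in which a cell that starts to become a neural precursor keeps its neighbours from doing the same, and for giving sibling cells different fates after an asymmetric division. Grain, the product of grn, is a zinc-finger factor of the GATA family, with known roles in the posterior spiracles and in motor axon guidance.

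The data were ChIP-seq peak lists from 3 biological replicates of whole Drosophila melanogaster embryos, 0 to 24 h old and of mixed sex. All came from 1 transgenic line that carries grn fused at its C-terminal end to GFP, and the tag was the target of the antibody. There was 1 group and no second condition, so no test between conditions could be made, and a peak can come from any tissue of the embryo. The control library named for the peak calls was not analysed here. Each replicate list held 30000 peaks, which were ranked by the authors' signal value with rank 1 as the strongest. No read counts come with the lists, and the depth behind them is unknown. Replicate 2 stood apart from the other replicates in the cap on its q-values (3.64 on the −log10 scale, against 4.12 and 4.16) and in its median peak width (430 bp, against 464 and 456 bp).

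The hexamer bound by GATA factors was searched on both strands in the forms AGATAA or AGATAG, and TGATAA or TGATAG. It lay within 50 bp of the summit at 8 of the 26 peaks, in introns of Delta, fng, neur and numb. Their windows of 101 bases centred on the summit are shown because they are the Notch pathway peaks whose sequence holds the binding letters of the factor's family. They were read from release 6 of the RefSeq genome (dm6), plus strand, 5′ to 3′, with the hexamers in capitals. A hexamer on the minus strand reads as TTATCT here. The neur window at 15.4 kb overlaps an exon of the non-coding gene asRNA:CR31429, and the others lie outside exons.
Delta intron 3, chr3R:19312088-19312188: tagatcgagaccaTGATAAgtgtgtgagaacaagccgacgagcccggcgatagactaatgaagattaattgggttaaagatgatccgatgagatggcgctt
fng intron 1, 3.29 kb from the 5′ end, chr3L:20946176-20946276: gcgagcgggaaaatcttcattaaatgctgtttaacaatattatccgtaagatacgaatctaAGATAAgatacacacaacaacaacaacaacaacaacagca
fng intron 1, 4.89 kb from the 5′ end, chr3L:20944573-20944673: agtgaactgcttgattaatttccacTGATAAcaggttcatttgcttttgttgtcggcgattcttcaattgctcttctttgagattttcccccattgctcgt
fng intron 4, chr3L:20933242-20933342: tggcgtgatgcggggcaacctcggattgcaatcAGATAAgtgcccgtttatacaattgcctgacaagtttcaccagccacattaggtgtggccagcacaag
neur intron 1, 2.74 kb from the 5′ end, chr3R:9036678-9036778: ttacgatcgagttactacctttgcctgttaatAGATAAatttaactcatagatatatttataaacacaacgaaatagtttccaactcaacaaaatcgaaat
neur intron 1, 9.04 kb from the 5′ end, chr3R:9030381-9030481: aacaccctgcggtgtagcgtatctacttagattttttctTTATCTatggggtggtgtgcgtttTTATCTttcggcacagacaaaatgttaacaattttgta
neur intron 1, 15.4 kb from the 5′ end, chr3R:9024012-9024112: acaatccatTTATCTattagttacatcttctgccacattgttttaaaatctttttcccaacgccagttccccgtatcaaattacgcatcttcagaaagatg
numb intron 2, chr2L:9459919-9460019: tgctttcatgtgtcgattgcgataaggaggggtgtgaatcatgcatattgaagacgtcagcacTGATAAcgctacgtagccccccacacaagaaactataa

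The copies were of the forms AGATAA, in 5 of the 8 windows, and TGATAA, in the other 3, and 1 of the neur windows held 2 of them. The Delta window also held the letters TGTGAGAA, 3 bases beyond the hexamer. This is a form of the site bound by Su(H), which was searched on both strands as CGTGGGAA or CGTGAGAA, and TGTGGGAA or TGTGAGAA. It was the only such site in the 26 windows. Over all optimal peaks 0.851% of windows held a Su(H) site, and 24 windows (0.365%) held both motifs. A match in such a window is a description of its letters, not evidence of binding by either factor.

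For comparison, the windows of the 2 strongest peaks of N, the receptor gene, held no hexamer.
N intron 1, chrX:3136876-3136976: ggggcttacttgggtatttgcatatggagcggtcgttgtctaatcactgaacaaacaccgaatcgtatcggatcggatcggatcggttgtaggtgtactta
N intron 5, chrX:3162448-3162548: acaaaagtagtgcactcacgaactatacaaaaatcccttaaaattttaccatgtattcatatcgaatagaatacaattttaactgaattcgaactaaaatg

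Grain summits were found at 8 of the 10 genes in the optimal list, where 25.5% of 13945 protein-coding genes held one. The pathway genes are long, however, with a median length of 23554.5 bp against 2166 bp for protein-coding genes, and a long gene holds more summits. Each was therefore set beside the protein-coding genes whose length, with the upstream part, was within 25% of its own. Of such genes, between 54.9% and 63.7% held an optimal summit for the 8 members that had one, 37.6% for H and 27.5% for Su(H), and these 10 shares add to 5.35 genes. In number of optimal summits, 6 of the 10 members (N, Delta, fng, neur, numb and mam) were above the median of genes of like length. Over the 332 kb covered by the 10 genes and their upstream parts there were 0.784 optimal summits per 10 kb, against 0.491 over the chromosome arms as assembled.

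**Figure D1:**
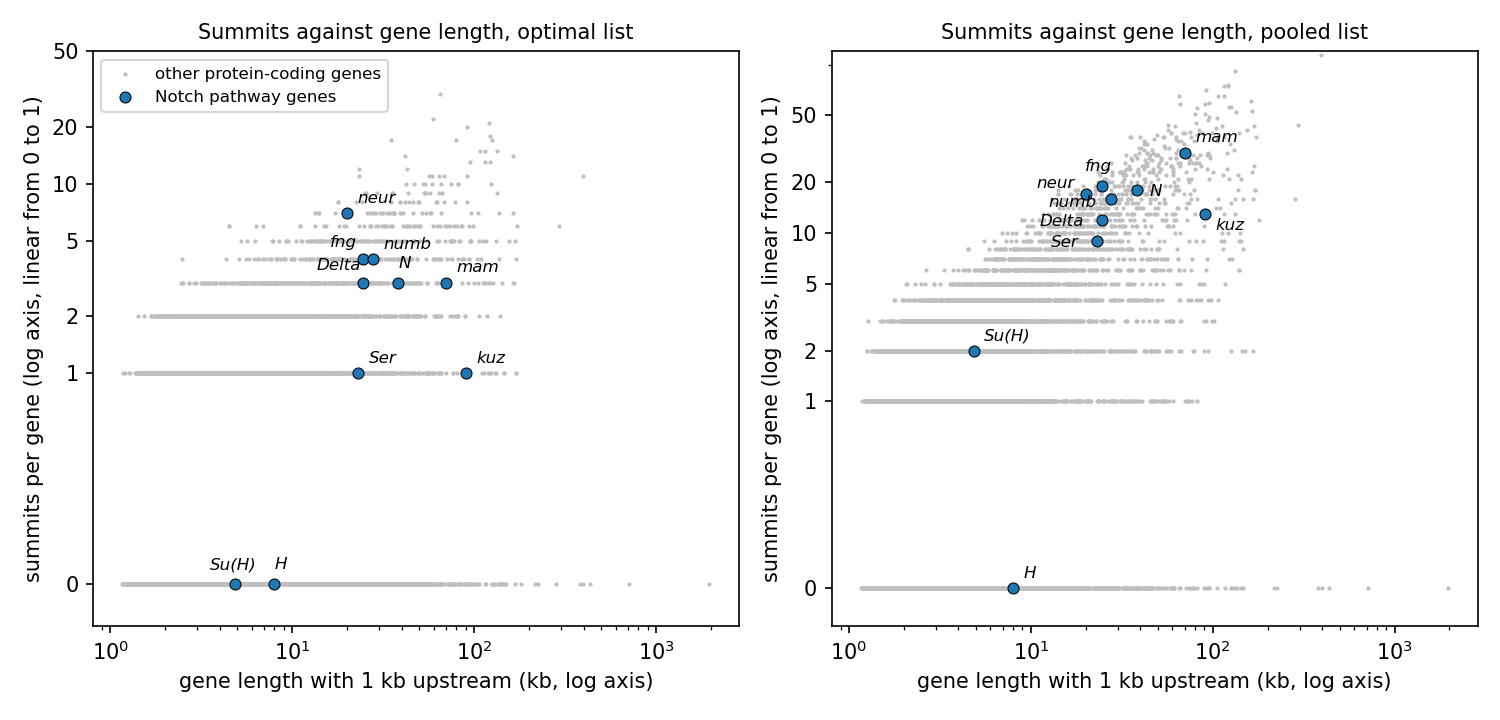
Number of Grain summits per gene (vertical, log axis that is linear between 0 and 1) against gene length with 1 kb upstream (horizontal, kb, log axis) for 13945 protein-coding genes, in the optimal list (left) and the pooled list (right). The 10 Notch pathway genes are named; neur, with 7 optimal summits, lies near the top of the genes of its length (0.992% held more), and H lies at 0 in both panels.

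**Figure D2:**
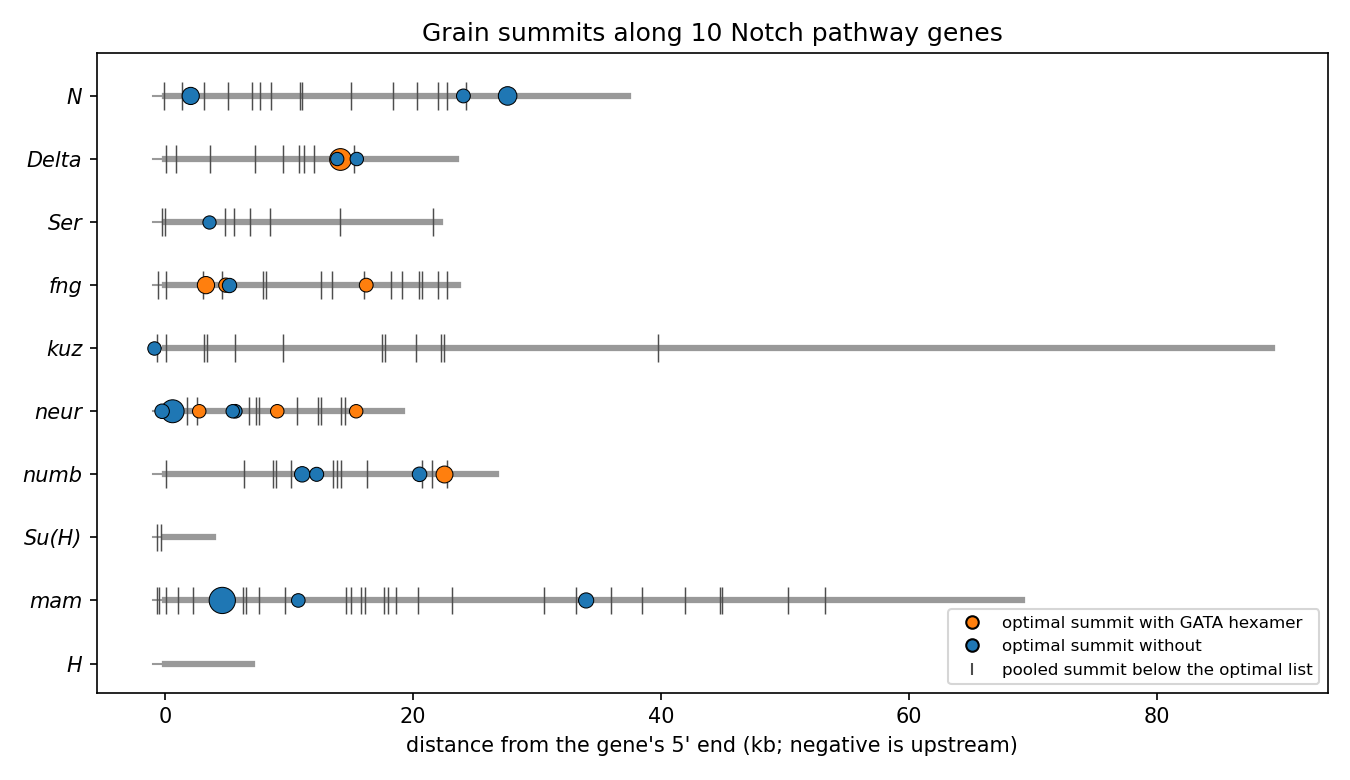
Summits along the 10 genes, drawn to scale from the 5′ end of each gene (horizontal axis, kb). Circles are the 26 optimal summits, with an area that rises with pooled signal, orange with a GATA hexamer and blue without; ticks are the 110 pooled summits below the optimal list. Most circles lie inside the genes and away from the 5′ end.

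The receptor gene N (FBgn0004647, X, 3134870 to 3172221, plus strand) held 3 optimal summits, and 25.9% of 375 genes of like length held more. The strongest, in intron 5 at 27.6 kb from the 5′ end (peak at 3162431 to 3162620, signal 269), ranked 1966, 2738 and 1222 in replicates 1, 2 and 3. The next, in intron 1 at 2.06 kb (3136825 to 3137036, signal 224), ranked 3275, 4026 and 1564. Both were thus among the 6580 strongest peaks of every replicate, and both ranked highest in replicate 3. The third lay in intron 4 (signal 128), ranked 7010, 9834 and 3849, and reached the strongest 6580 in replicate 3 alone. None of the 3 optimal summits lay near the start of N, and none of their windows held a GATA hexamer. A weaker pooled summit lay upstream, at -137 bp from the 5′ end (signal 67.5, pooled rank 11643). Replicate 3 held a peak there at rank 6470.

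Delta (FBgn0000463, 3R, 19302731 to 19326217, minus strand), whose product is the main Notch ligand of neural precursors, held 3 optimal summits, all deep in the gene. The strongest lay in intron 3 at 14.1 kb from the 5′ end (19311998 to 19312297, signal 387, rank 722 in the pooled list) and is the window with both a GATA hexamer and a Su(H) site. Its ranks in the replicates were 795, 1327 and 595, a mean of 906 ± 378 (SD, n = 3). A second, weaker peak (signal 115) overlapped it, with its summit 200 bp away. Replicates 1 and 3 each held a peak with its summit at the same base, ranked 3820 and 7063, while replicate 2 held 1 peak for both summits. The third, in intron 4 (signal 118), ranked 7953, 12355 and 3735. The 5′ end of Delta held no optimal summit within 500 bp, but a weaker pooled summit lay 31 bp from it (signal 89.5, pooled rank 8499). Of 520 genes of like length, 15.4% held more optimal summits.

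Ser (FBgn0004197, 3R, 27172090 to 27194267, minus strand) encodes Serrate, the other Notch ligand. It held 1 optimal summit, in intron 2 at 3.53 kb, which was the weakest of the 26 (signal 113, pooled rank 6322). Its ranks of 8156, 7628 and 5598 place it in the strongest 6580 in replicate 3 alone. Of 550 genes of like length, 36.0% held more optimal summits.

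The gene fng (FBgn0011591, 3L, 20925891 to 20949512, minus strand) encodes Fringe, a glycosyltransferase that changes the affinity of Notch for its ligands. Of its 4 optimal summits 3 had the GATA hexamer. The strongest, in intron 1 at 3.29 kb from the 5′ end (20946141 to 20946331, signal 226), ranked 3292, 3853 and 1328, a mean of 2824 ± 1326 (SD, n = 3). Its summit lay 13.5 bp from the centre of a hexamer. A pair of overlapping peaks followed in the same intron (signals 138 and 140.5). Taking the replicate peak with the nearest summit, the former ranked 5338, 5118 and 4433 and the latter 5911, 5118 and 2845, since replicate 2 held 1 peak for both. The last, in intron 4 (signal 127), ranked 4311, 7471 and 9016. Of 515 genes of like length, 9.71% held more optimal summits.

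The gene kuz (FBgn0259984, 2L, 13550139 to 13639411, plus strand) encodes Kuzbanian, the protease that makes the first, outer cut in the bound receptor. Though the longest of the 10 genes at 89.3 kb, it held 1 optimal summit, 888 bp upstream of its 5′ end. This summit (13549021 to 13549480, signal 118, ranks 5010, 4167 and 7780) lay inside the neighbouring gene B4 and 77 bp from a start site of B4. The body of kuz thus held no optimal summit. It did hold weaker pooled summits, the strongest in intron 3 at 20.3 kb (signal 83.6, pooled rank 9180). That one ranked 13343 in replicate 1 and 5727 in replicate 3, with no peak in replicate 2. Counted with the upstream part, kuz held 1 optimal summit. Of 113 genes of like length, 63.7% held at least 1 by that same count, and their median was 3.

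The gene neur (FBgn0002932, 3R, 9020348 to 9039471, minus strand) encodes Neuralized, the ubiquitin ligase that sends Delta into endocytosis in the signalling cell. It held the most optimal summits of the 10 genes, 7, and 0.992% of 605 genes of like length held more. The strongest (9038734 to 9038984, signal 436) lay in the long intron 1, 0.597 kb from the 5′ end. Its ranks of 501, 513 and 761 gave a mean of 592 ± 147 (SD, n = 3). It also lay inside the overlapping gene hyx, which encodes a subunit of the Paf1 complex of transcription elongation, and 114 bp from a hyx start site. The summit upstream of neur (signal 146, ranks 4546, 6864 and 5520) also lay inside hyx, 43 bp from a start site.

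The remaining 5 summits of neur were weak and close to one another in signal, between 118 and 123, and all lay in intron 1. The lowest signal in the optimal list was 109.7, so the high count of neur rests largely on peaks near that floor. The summit at 2.74 kb (ranks 4173, 16392 and 10442) had the hyx start site as its nearest protein-coding one. An overlapping pair lay at an inner start site of neur, 293 and 85 bp away. Replicates 1 and 2 held 1 peak for both summits (ranks 5011 and 7022), and replicate 3 held a peak for each (ranks 6889 and 3185). The summit at 9.04 kb, the one with 2 hexamers (ranks 3520, 7096 and 8191), lay 3300 bp from the nearest start site. The last summit, at 15.4 kb (ranks 7279, 12390 and 4329), had the tgo start site as its nearest protein-coding one. The neur summits with a hexamer, at 2.74, 9.04 and 15.4 kb, were each in the strongest 6580 of 1 replicate alone. Just beyond the 3′ end of neur, at a distance of 359 bp, lay the peak of tgo, with a signal of 908. Replicates differed at neur, which held 5, 1 and 4 summits of the strongest 6580 peaks of replicates 1, 2 and 3.

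The gene numb (FBgn0002973, 2L, 9437469 to 9464184, plus strand) encodes the membrane-associated Notch antagonist that is passed to 1 daughter of an asymmetric division. It held 4 optimal summits, all in intron 2, and 12.0% of 449 genes of like length held more. The strongest lay at 22.5 kb from the 5′ end (9459866 to 9460012, signal 215) and carries the hexamer shown above. It ranked 1902, 1925 and 4483, lower in replicate 3 than in the others. The summit at 11.1 kb (signal 171) ranked 3603, 5251 and 3364, so that both were in the strongest 6580 of all 3 replicates. The summit at 12.2 kb (signal 133) lay 143 bp from an inner start site of numb, and the replicate peaks with the nearest summit ranked 4540, 9489 and 4539. The last, at 20.5 kb (signal 146), ranked 3819, 7382 and 6532.

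Of the nuclear genes, mam (FBgn0002643, 2R, 13991203 to 14060356, plus strand) encodes Mastermind, the co-activator that joins Notch and Su(H) on DNA. It held the strongest Grain peak of all 10 genes, in intron 2 at 4.60 kb from the 5′ end (13995626 to 13995984, signal 586, pooled rank 232). This peak ranked 218, 287 and 220 in the replicates, a mean of 242 ± 39.3 (SD, n = 3), the smallest SD of the 26. No GATA hexamer lay within 500 bp of its summit. The other optimal summits of mam, in intron 2 (signal 122, ranks 9166, 3708 and 5085) and intron 3 (signal 163, ranks 3751, 5667 and 3484), were weaker. Of 181 genes of like length, 34.8% held more optimal summits.

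Su(H) (FBgn0004837, 2L, 15039488 to 15043334, plus strand), the DNA-binding factor of the pathway, and H (FBgn0001169, 3R, 20621938 to 20628915, plus strand), which encodes Hairless, the co-repressor that Su(H) recruits when Notch is silent, held no optimal summit. At Su(H) 2 pooled summits lay in the upstream part, the stronger with signal 73.3 and rank 10672. That one lay 49 bp from a start site, with CIAPIN1 as the nearest protein-coding gene. H held no summit in the optimal list, the pooled list or any replicate list. Of 1357 genes of like length, 39.7% held no pooled summit either. The nearest optimal summits lay 15.5 kb upstream of the H window and 193 kb downstream of it.

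Agreement between replicates was uneven over the 26 peaks. Among the 6580 strongest peaks of replicates 1, 2 and 3, the optimal peaks met in 21, 14 and 22 cases, a mean of 73.1% ± 16.8 (SD, n = 3), against 86.2% ± 4.25 over all optimal peaks. All 3 replicates held 12 of the 26 (46.2%), 2 replicates held 7 and 1 replicate held 7, while over all optimal peaks 67.8% were in all 3. This counts the strongest replicate peak under each optimal peak, and with the one of nearest summit 11 of the 26 were in all 3. The optimal list is the top of the pooled list by signal, and 19 of the 26 peaks lay outside its 3290 strongest (median signal 135 against 176 over the list). Among the 3290 strongest peaks of the list all 7 member peaks were in all 3 replicates, as were 96.0% of all peaks there. Among the weaker 3290 peaks 5 of 19 were (26.3%), against 39.6% of all peaks there. There the member shares were 73.7%, 36.8% and 78.9% in replicates 1, 2 and 3, beside 79.2%, 65.6% and 76.2% of all such peaks, with the widest gap in replicate 2. Where both lists met, the median summit shift was 5 bp, 19 bp and 9 bp in replicates 1, 2 and 3. Of 78 shifts, 58 were within 50 bp, and the largest was 364 bp. Peaks were matched by overlap, which itself limits the shift.

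**Figure D3:**
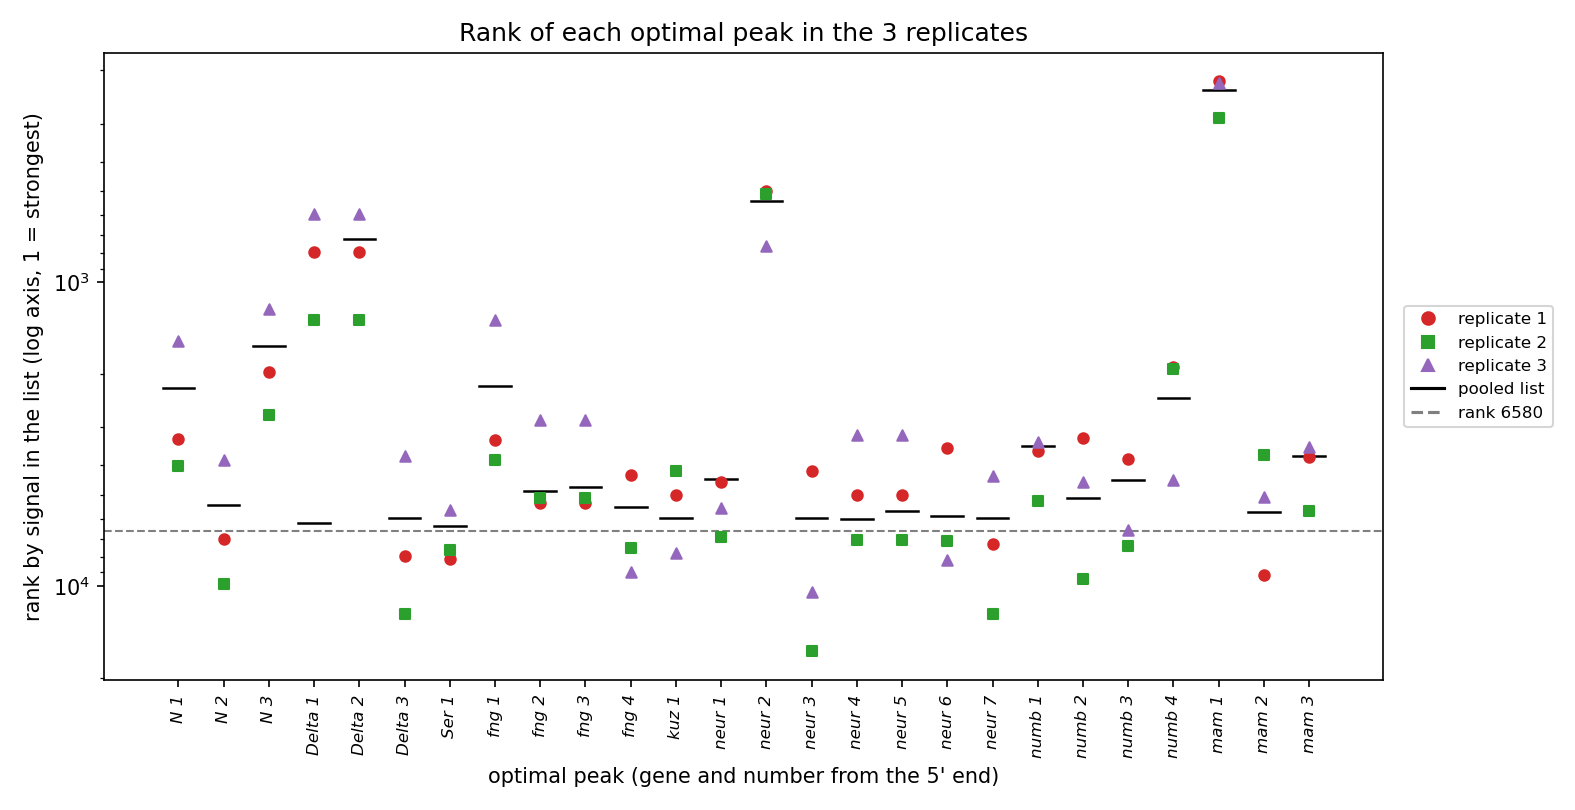
Rank of each of the 26 optimal peaks in the 3 replicate lists (points) and in the pooled list (bars), on a log axis with the strongest at the top; the dashed line is rank 6580. The first mam peak and the second neur peak sit above rank 1000 in every replicate, while 14 of the 26 peaks have at least 1 replicate below the line. Where several replicate peaks overlap 1 optimal peak the strongest is plotted, so Delta 1 and 2, fng 2 and 3, and neur 4 and 5, which overlap, are drawn at equal ranks.

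By number of members with a summit among the strongest 6580 peaks, the replicates gave 7, 7 and 8 of the 10 genes, beside 26.0%, 28.3% and 24.7% of all protein-coding genes. The number of such summits at the 10 genes was 22, 15 and 28. Replicate 3 had 8 at mam against 3 and 5 in replicates 1 and 2, and 5 of its 8 lay under no optimal peak. In the whole lists of 30000 peaks the members held 131, 111 and 140 summits, and mam held 32, 32 and 34.

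Most optimal Grain summits at these genes lay in introns and away from start sites. Within the member's own annotation 24 of the 26 lay in introns, 10 of these in intron 1 of the longest transcript, and 2 lay upstream. With exons of any gene taken into account 88.5% were intronic, against 52.3% of all optimal summits. The rule gave the members only summits in a gene body or within 1000 bp upstream. The share over all optimal summits also counts those between genes, so part of this gap is set by the rule. Within 500 bp of any start site lay 6 of the 26 (23.1%, exact 95% Clopper-Pearson interval 8.97 to 43.6, for counting error only), against 39.7% of all optimal summits, and the other 20 lay over 1000 bp away. The share was 8.33% for member peaks in the strongest 6580 of all 3 replicates. For those in both of a pair of replicates it was 7.69% without replicate 1, 29.4% without replicate 2 and 15.4% without replicate 3, while over all optimal peaks these 4 sets gave between 39.6% and 41.2%. Counted over the top 6580 peaks per replicate, the member share within 500 bp was 21.9% ± 7.48 (SD, n = 3). Long genes hold more of their length far from a start site, and the part this plays in the share was not tested. All 6 of these promoter summits were at kuz, neur and numb. Those of kuz, and 2 of the 4 at neur, were nearest to the starts of B4 and hyx. In all, 10 of the 26 summits had the start site of a gene outside the 10 as their nearest protein-coding one: hyx at 3, CG18508 at 2 in N, and B4, CG44174, CG10589, tgo and CG18371 at 1 each.

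The GATA hexamer was present at 8 of 26 summit windows (30.8%, exact 95% interval 14.3 to 51.8) and at 3 of 26 windows of equal width placed 500 bp to the right (11.5%). At 6 peaks it was at the summit only and at 1 in the flank only. Over all optimal peaks the shares were 46.2% and 18.5%, and at this window width the first lies inside the interval of the member share. For members and all optimal peaks the shares were 23.1% and 28.7% within 25 bp, and 38.5% and 63.3% within 100 bp. No intervals are given at those widths. Counted per replicate over its top 6580 peaks, the member share was 35.0% ± 5.84 (SD, n = 3), against 44.2% ± 0.672 over all such peaks. In replicate 2 the member summit and flank windows both stood at 40.0%, of 15 peaks. All 8 windows with a hexamer were at distal summits, 8 of 20. None of the 6 summits within 500 bp of a start site had one. For distal summits and those within 500 bp over all optimal peaks, the shares were 50.5% and 39.4%. The median distance from a member summit to the nearest hexamer, among the 22 with one within 500 bp, was 123 bp, against 48.5 bp over all optimal peaks. Member peaks with a hexamer had a median signal of 132 and those without 137, and the 2 strongest peaks of the 10 genes, at mam and neur, had none.

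**Figure D4:**
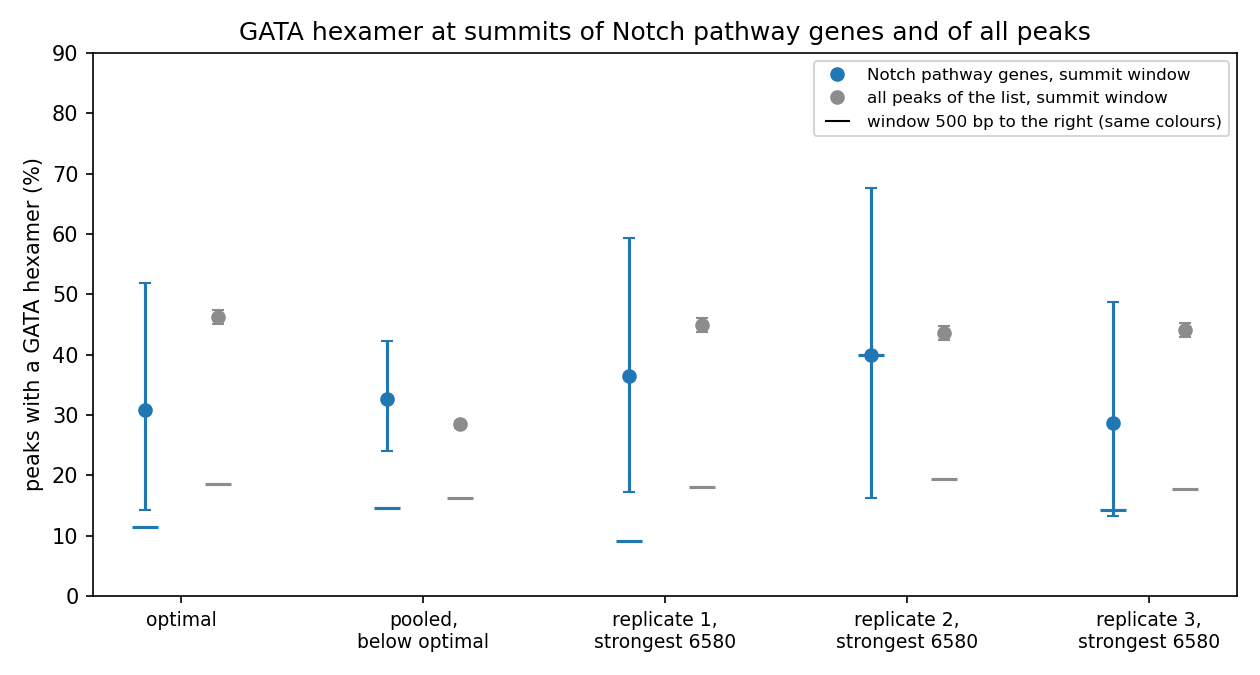
Share of peaks with a GATA hexamer in the 101 bases at the summit (points, with exact 95% Clopper-Pearson intervals) and in the window 500 bp to the right (short bars), for Notch pathway genes (blue) and all peaks (grey) in 5 sets. The blue points lie between 28.6% and 40.0%, and their intervals are wide because they rest on 15 to 110 peaks.

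Of the other motifs searched on both strands, the proneural E box CAGCTG was in 2 of the 26 windows (7.69%, against 4.76% of all optimal windows). GAGAGA, the Zelda heptamer CAGGTAG and the DREF element TATCGATA were in none, which allows a share of up to 13.2% (exact 95% interval), and they were in 6.58%, 0.851% and 1.34% of all optimal windows.

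Below the optimal list the 10 genes held 110 further pooled summits, at 9 of the 10 genes, where 47.4% of protein-coding genes held a pooled summit of any strength. With these, 8 members had more pooled summits than the median gene of like length. Of genes of like length, 81.3% (neur) to 89.5% (mam) held a pooled summit for the members with an optimal one. The share was 52.6% for Su(H) and 60.3% for H. The density was 4.10 pooled summits per 10 kb, against 2.24 over the arms. The strongest of these weaker peaks at any member was at mam (signal 103, pooled rank 7117, ranks 13312, 5723 and 7700), and the strongest at Delta (signal 98.6, pooled rank 7542) and fng (signal 95.6, pooled rank 7822) were close to it in signal. At Ser the strongest weaker summit lay 5 bp from its start site (signal 49.8, pooled rank 15669). Within 500 bp of any start site lay 7 of 27 weaker summits at mam and 2 of 8 at Ser. So did 2 of 15 at fng, 2 of 12 at kuz and 2 of 2 at Su(H). The counts were 1 of 15 at N, 1 of 9 at Delta, 1 of 12 at numb and 0 of 10 at neur. The hexamer was present at 36 of the 110 (32.7%), against 28.5% of all pooled peaks below the optimal list. Counting all pooled summits, fng stood highest with a hexamer at 12 of 19 (63.2%), then kuz with 5 of 13 (38.5%) and neur with 6 of 17 (35.3%), while Delta had 2 of 12 (16.7%). Over all 30000 pooled peaks the share was 32.4%.

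Beyond the 10 genes, 25 of 51 other genes of the pathway held an optimal summit (49.0%, beside the 25.5% of all protein-coding genes given above). Their median length was 3269 bp, and the shares of genes of like length with an optimal summit add to 14.9 genes. For ligand uptake and its inhibitors these shares add to 2.95, and for receptor cleavage and sugar modification to 2.74. Among genes for ligand uptake and its inhibitors 4 of 13 held one, led by aux (signal 192), which encodes the clathrin-uncoating cofactor auxilin, lqf (signal 150.4), which encodes the endocytic adaptor epsin, and Brd (signal 132, ranks 4200 and 4701 in replicates 1 and 3 and no peak in replicate 2), an inhibitor of Neuralized, while the ubiquitin ligase genes mib1 and mib2 held none. Among genes for receptor cleavage and sugar modification 4 of 10 did, led by the furin-type protease gene Fur1 (signal 316), the nucleotide-sugar transporter gene frc (5 summits, strongest signal 261 with the CG32176 start nearest) and the glucosyltransferase gene rumi (signal 147). Of the γ-secretase genes, aph-1 held one (signal 136, ranks 4931, 3309 and 5041), while Psn, nct (annotated as Nct) and pen-2 held none. Of the receptor trafficking genes, with a median length of 6659 bp, 7 of 9 did, where the shares of genes of like length add to 3.31, led by the ubiquitin ligase gene Nedd4 (signal 518, ranks 388, 261 and 350), lgd (annotated as l(2)gd1, signal 415) and the recycling GTPase gene Rab11 (signal 375), and not dx or spdo.

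Among co-repressor and co-activator genes 4 of 7 held an optimal summit, led by the Mediator gene skd (6 summits, strongest signal 377 with the CG12984 start nearest) and the genes CtBP (signal 363) and gro (signal 244), whose products are the co-repressors that Hairless recruits. Bx42 and kto held none, and for this role the shares of genes of like length add to 2.92. Among target genes 6 of 12 did, led by sim (signal 264), ct (4 summits, strongest signal 194) and E(spl)m7-HLH (signal 165, ranks 7117, 3712 and 2270). E(spl)m3-HLH and E(spl)m5-HLH held none, and for the target genes the shares of genes of like length add to 2.98.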

How the data were processed

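Peak lists of 3 replicates of 1 group, a pooled list and an optimal list were used as deposited. Per the file descriptions deposited with them, replicate lists were made by the authors from each replicate's alignments and a control, the pooled list from all 3, and the optimal list from these by irreproducible discovery rate. Coordinates are dm6. Aligner and peak caller: not given in the sources used here. The authors' signal per peak has no stated scale and was used only to rank peaks within a list. The deposited −log10 q-value is capped in each list. The summit offset in bp is also the authors'.

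Genes were those of Ensembl release 115 (18164 without transposable elements), and sequence came from RefSeq release 6, whose arm lengths no peak exceeded. A replicate peak met an optimal peak when they overlapped by at least 1 bp, and the strongest such peak gave the rank unless the text names the nearest summit. Motif windows were 101 bases. Counting steps were tested on simulated data with Python 3.11.15 and scipy 1.17.1. No test was run, since the design has 1 group. Counting intervals cover counting error only, and peaks are not independent of one another. The alternatives concerned the upstream reach, the assignment of peaks, stricter peak sets and the windows. The dm3 lists were not used. Sequence of mam is not printed.

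The 10 members, the lists of other pathway genes and the motifs were chosen with earlier results of these data known. All 10 members are named. Of the other pathway genes, up to 3 with the strongest peak and up to 2 without an optimal summit are named in each role; aph-1 and pen-2 were added after their values were seen.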

Additional observations from a re-analysis of the deposited data

How the results depend on the processing

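No paired analysis was possible because there was 1 group. With 0 or 2000 bp upstream, any overlap of the interval, or the nearest protein-coding start site, members with an optimal summit numbered 7 or 8 and summits between 18 and 26, against 8 and 26. Gene body alone removed kuz. With the 3290 strongest optimal peaks, 7 summits were left at 6 genes, beside 15.7% of all protein-coding genes with one. Of the 7, 42.9% had a hexamer and 14.3% lay within 500 bp of a start site. Over all of the 3290 these shares were 51.1% and 40.4%. With peaks in all 3 replicates, 12 summits were left, 8.33% within 500 bp, against 40.7% of all such optimal peaks. With an overlap of at least 0.5 of both intervals in all 3 replicates, 5 summits at 5 genes were left, and agreement in all 3 replicates was 19.2%, an alternative chosen after seeing the data, as was leaving out replicates for agreement. The cause was not tested, and no share over all genes or over all optimal peaks is given for this set. Agreement was 42.3% with the replicate peak of nearest summit, also chosen after seeing the data. Leaving out each replicate in turn kept peaks in the strongest 6580 of both others, to be read beside the 12 in all 3 replicates, and gave 13 to 17 summits, 23.5% to 30.8% with a hexamer, 7.69% to 29.4% within 500 bp, and agreement of 50% to 65.4%. Summits numbered 13 without replicate 1 or 3 and 17 without replicate 2, and the share within 500 bp was lowest without replicate 1. For these alternatives no agreement over all optimal peaks is given. The 67.8% over all optimal peaks belongs to the main rule alone. Within 25 bp of the summit 23.1% held a hexamer and within 100 bp 38.5%, against 28.7% and 63.3% of all optimal peaks. Counting each overlapping pair once left 23 peaks, 7 with a hexamer and 10 in all 3 replicates. With 26 peaks, shares carry wide counting intervals. Shares within 500 bp of a start site rest on 6 peaks.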
